A study of Mus musculus with 6 samples.

Results

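A set of 10 matrix genes of fibroblasts was followed in sorted muscularis externa (ME) cells, namely Dcn, Lum, Bgn, Fbln1, Fbn1, Postn, Pdgfra, Pdgfrb, Sparc and Tnc. They were picked by symbol as proteoglycans, matrix glycoproteins and receptors for which fibroblasts are known. The choice was made with earlier results of these data known, so that the counts of calls below describe the set and do not test it. All 10 were among the 26110 genes listed in the normalized expression table, each once, and all 10 were among the 17812 genes tested. RNA had been measured by bulk RNA-seq in 3 libraries of MHCIIhi CX3CR1- cells and 3 libraries of MHCIIhi CX3CR1+ cells of the small bowel ME, the outer muscle coat of the gut wall. Both populations came from untreated female mice with the genotype CX3CR1+/GFP on a C57BL/6 background, in which GFP expressed from 1 Cx3cr1 allele marks the cells that use this gene and the other allele is intact. The age of the animals is not given in the sources used here. The ME of 6 mice per group had been pooled, and whether each library had a pool of its own is not stated, so that the spread between the libraries of a group may be partly technical.

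The extracellular matrix is built by fibroblasts and related mesenchymal cells from collagens, elastic fibres, proteoglycans and adhesive glycoproteins. Small leucine-rich proteoglycans such as decorin and lumican bind collagen fibrils and regulate their width and spacing, whereas fibrillins and fibulins form and organize microfibrils and elastic fibres. Matricellular proteins such as tenascin-C, periostin and SPARC act less as scaffold than as modulators of cell adhesion, and they are known for their induction in wound repair. In the gut wall, PDGFRα marks fibroblast-like cells that lie among the muscle fibres and along the myenteric plexus, and PDGFRβ marks pericytes and other perivascular cells. The comparison asked how far the RNA of these genes differed between the populations that the sort on CX3CR1 had separated.

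All 10 genes had a higher value in each CX3CR1- library than in any CX3CR1+ library. All 10 were called higher in CX3CR1- cells and 0 lower, against 12.2% of all tested genes called higher and 8.15% called lower. Groups that did not overlap, with CX3CR1- higher, were seen for 20.3% of all tested genes, and those with CX3CR1- lower for 19.8%. The median log2 fold change of the 10 genes was 4.97, and that of all tested genes was 0.00. The estimates ran from 1.56 for Postn to 6.00 for Fbln1. A gene was called when limma, fitted to log2(value + 1) of all tested genes, put its log2 fold change at 1 or more in either direction with a Benjamini-Hochberg adjusted p of at most 0.05. Log2 fold changes above 0 stand for more RNA in CX3CR1- cells, and those of low genes are understated on this scale. For each of the 10 genes an exact two-sided permutation test of the library values gave p = 0.1, the smallest that 3 libraries against 3 allow. Values in bulk RNA cannot tell fewer cells of a type from less RNA per cell.

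Depth and sort were checked first. The libraries held about 5346379 to 17616748 reads assigned to genes, and 3 reads corresponded to a normalized value between 1.39 and 5.36. Cx3cr1 itself was 18.9 to 28.5 in CX3CR1- and 347 to 380 in CX3CR1+ libraries. Of the markers of the gate, Ptprc, which encodes the leukocyte antigen CD45, had 2860 to 4530 and 3900 to 4580. H2-Aa, which encodes an MHC class II chain, was the 1 of the 5 gate genes called lower in CX3CR1- cells, at 23060 against 46140. Its log2 fold change lay at the threshold, and 0 gate genes were called without CX3CR1- replicate 1, CX3CR1- replicate 3 or CX3CR1+ replicate 1, 2 without CX3CR1- replicate 2 and 3 after quantile normalization. H2-Eb1, Cd74 and H2-Ab1 were not called in the fit reported, but each was lower in every CX3CR1- library than in any CX3CR1+ library. Their log2 fold changes were -0.94, -0.85 and -0.64 (limma adjusted p = 0.000519, 0.000694 and 0.0036). For Ptprc the groups overlapped, with a log2 fold change of -0.20. The labels name both populations dendritic cells, whereas the study calls them macrophages. The study also reported higher CD103 and Flt3 transcripts in CX3CR1- cells. By flow cytometry it found most of these cells positive for CD11b and very few for CD11c or CD103. In its tissue staining they were positive for the macrophage marker IBA-1. The counts below are of RNA only. The 7 markers of conventional dendritic cells were all called higher in CX3CR1- cells and summed to 3012 to 3618 there, against 181 to 245 in CX3CR1+ cells. For 1 of the 7 the CX3CR1+ mean was under 10, the mean over all 6 libraries that a gene needed to be tested. That gene reached the minimum through its CX3CR1- values. The 9 macrophage markers were all called lower in CX3CR1- cells, where they summed to 6626 to 7741, against 34140 to 38760. The share of mitochondrial genes was 51.7 ± 3.76% in CX3CR1- libraries and 19.6 ± 1.55% in CX3CR1+ libraries (SD, n = 3 each). A refit after rescaling to the total without mitochondrial genes is given at the end and covers the scaling only. Any other part of that difference in the results below was not tested.

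**Figure D1:**
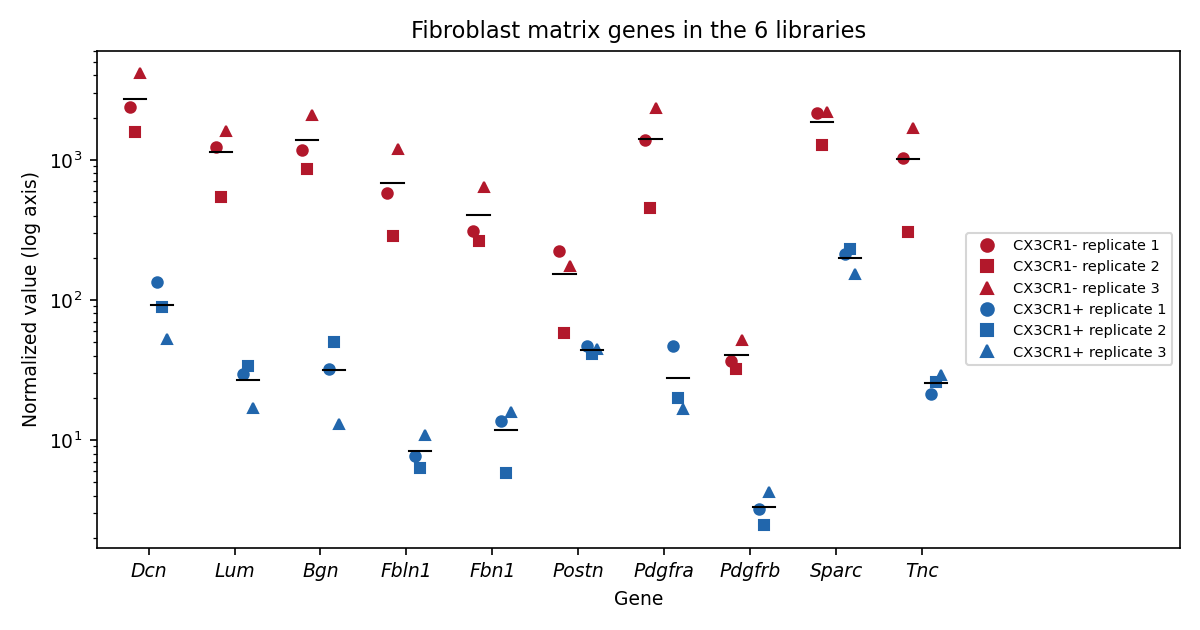
Normalized value (log axis) of each of the 10 matrix genes in the 6 libraries. Red points are CX3CR1- and blue points CX3CR1+ libraries, the point shape gives the replicate and black lines are group means. For every gene the red points lie above the blue ones, with the narrowest gap for Postn, whose lowest CX3CR1- value was 1.25 times its highest CX3CR1+ value.

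The small leucine-rich proteoglycans were the first group. Decorin, encoded by Dcn on chromosome 10 (GRCm38, chr10:97479609-97518143, plus strand), carries a single glycosaminoglycan chain, binds collagen fibrils and also holds growth factors of the TGF-β family. Its normalized value was 2390, 1580 and 4140 in CX3CR1- replicates 1, 2 and 3, and 135, 88.4 and 52.8 in CX3CR1+ replicates 1, 2 and 3. The lowest CX3CR1- library thus stood 11.7 times above the highest CX3CR1+ library. The group means were 2704 ± 1310 and 92.0 ± 41.1 (SD, n = 3 each), with a log2 fold change of 4.85 (SE 0.391, limma adjusted p = 1.86e-05).

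Lumican, a keratan sulphate proteoglycan that spaces collagen fibrils, is encoded by Lum (chr10:97565128-97572703, plus strand), which starts 47.0 kb after the end of Dcn. Lum had 1240, 545 and 1600 in CX3CR1- and 29.6, 33.6 and 17.0 in CX3CR1+ replicates 1, 2 and 3. The means were 1129 ± 537 and 26.7 ± 8.68 (SD, n = 3 each), and the log2 fold change was 5.27 (SE 0.407, limma adjusted p = 1.51e-05). The 95% intervals of their log2 fold changes, 3.98 to 5.72 for Dcn and 4.36 to 6.17 for Lum, overlapped. Of the other genes within 500 kb, C030005K15Rik was listed and stayed between 0 and 8.5.

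Biglycan, encoded by Bgn (chrX:73483602-73495933, plus strand), is a close relative of decorin with more glycosaminoglycan, and its soluble form is known as a ligand of Toll-like receptors. Bgn had 1170, 862 and 2100 in CX3CR1- and 32.4, 49.9 and 12.9 in CX3CR1+ replicates 1, 2 and 3. Means of 1377 ± 646 and 31.7 ± 18.5 (SD, n = 3 each) gave a log2 fold change of 5.48 (SE 0.468, limma adjusted p = 2.6e-05). No CX3CR1+ library came near the CX3CR1- values, although the CX3CR1+ libraries themselves differed by 3.86 times between the lowest and the highest.

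The genes of fibulin and fibrillin followed. Fibulin-1, encoded by Fbln1 (chr15:85205949-85286535, plus strand), is a secreted glycoprotein of basement membranes and elastic fibres. Fbln1 had 577, 288 and 1190 in CX3CR1- and 7.72, 6.26 and 10.9 in CX3CR1+ replicates 1, 2 and 3, and the latter correspond to about 17, 8 and 8 reads. With means of 684 ± 460 and 8.29 ± 2.37 (SD, n = 3 each) it had the highest log2 fold change of the 10 genes, 6.00 (SE 0.474, 95% interval 4.95 to 7.06, limma adjusted p = 1.7e-05). With 10 added before the logarithm it was 5.03, below the 5.06 of Bgn, and without CX3CR1+ replicate 2 it was 5.84, below the 5.90 of Bgn. Fbln1 and Pdgfrb were the only 2 of the 10 genes with a CX3CR1+ mean under 10, the minimum mean over all 6 libraries that a gene needed to be tested. They passed that minimum through their CX3CR1- values.

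Fibrillin-1, encoded by Fbn1 (chr2:125300594-125507993, minus strand), is the backbone of the microfibrils on which elastin is laid down. Fbn1 had 310, 264 and 637 in CX3CR1- and 13.6, 5.80 and 15.7 in CX3CR1+ replicates 1, 2 and 3. Its means were 404 ± 203 and 11.7 ± 5.22 (SD, n = 3 each), with a log2 fold change of 4.98 (SE 0.446, limma adjusted p = 3.43e-05). The antisense gene Gm9913 overlaps its exons and shares 19.9% of the 31-base words of the Fbn1 transcripts. The library kit did not keep the strand, so that reads of the pair cannot be told apart there. Gm9913 was not among the genes listed, so that no value of its own can be set beside that of Fbn1. For the other genes the share of such words was 5.57% for Pdgfra and at most 1.65% otherwise.

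Among the matricellular genes, Sparc and Tnc stood far above the CX3CR1+ level and Postn did not. SPARC, encoded by Sparc (chr11:55394500-55423183, minus strand), is a collagen-binding glycoprotein that many mesenchymal and endothelial cells secrete. Sparc had 2160, 1280 and 2180 in CX3CR1- and 212, 230 and 153 in CX3CR1+ replicates 1, 2 and 3. The means were 1875 ± 515 and 198 ± 40.2 (SD, n = 3 each), and the log2 fold change was 3.21 (SE 0.254, limma adjusted p = 1.7e-05). About 459, 280 and 108 reads stood behind the CX3CR1+ values, so that its RNA was well above the 3-read level in both populations.

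Tenascin-C, encoded by Tnc (chr4:63959785-64047015, minus strand), is a large glycoprotein with an anti-adhesive action that appears in repair and around remodelling tissue. Tnc had 1030, 303 and 1700 in CX3CR1- and 21.3, 26.0 and 28.9 in CX3CR1+ replicates 1, 2 and 3. The CX3CR1- libraries differed among themselves by 5.60 times, the widest range of the 10 genes in that population, whereas the CX3CR1+ libraries differed by 1.36 times. Means of 1010 ± 698 and 25.4 ± 3.87 (SD, n = 3 each) gave a log2 fold change of 4.95 (SE 0.52, limma adjusted p = 9.34e-05).

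Periostin, encoded by Postn (chr3:54361109-54391037, plus strand), promotes the crosslinking of collagen and is known from injured and remodelling tissue. Postn had 224, 58.1 and 175 in CX3CR1- and 46.7, 41.1 and 44.8 in CX3CR1+ replicates 1, 2 and 3. The CX3CR1+ libraries lay close together, at 44.2 ± 2.82 (SD, n = 3), and CX3CR1- replicate 2 was just above them, whereas the mean of the CX3CR1- libraries was 152 ± 85.2 (SD, n = 3). The log2 fold change was 1.56 (SE 0.456, 95% interval 0.54 to 2.57, limma adjusted p = 0.0314). Its call rested on the libraries and on the fit. It was lost with all 6 libraries after quantile normalization (limma adjusted p = 0.0688) and without a trend in the variance (limma adjusted p = 0.0795). Leaving out CX3CR1+ replicate 1, 2 or 3 also ended it at log2 fold changes of 1.60, 1.51 and 1.57, close to the 1.56 of all libraries, and so did leaving out CX3CR1- replicate 1 or 3, at 1.18 and 1.35. Without CX3CR1- replicate 2 it was 2.14 and Postn was called.

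The receptors for platelet-derived growth factor closed the list. PDGFRα, encoded by Pdgfra (chr5:75152292-75198215, plus strand), binds PDGF-A, PDGF-B and PDGF-C and is the usual surface marker of fibroblasts. Pdgfra had 1390, 450 and 2360 in CX3CR1- and 46.5, 20.1 and 16.8 in CX3CR1+ replicates 1, 2 and 3. The means were 1398 ± 953 and 27.8 ± 16.3 (SD, n = 3 each), and the log2 fold change was 5.45 (SE 0.563, limma adjusted p = 8.34e-05). Its exons overlap those of the antisense gene Gm42802 and of Mir7025, and 3.97% of its 31-base words are shared with Gm42802, which was not listed.

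PDGFRβ, encoded by Pdgfrb on chromosome 18 (61045150 to 61085061, plus strand), binds PDGF-B and PDGF-D and is needed for the recruitment of pericytes to vessels. Pdgfrb had 36.5, 32.2 and 51.8 in CX3CR1- and 3.24, 2.46 and 4.25 in CX3CR1+ replicates 1, 2 and 3. The CX3CR1+ values correspond to about 7, 3 and 3 reads, so that CX3CR1+ replicates 2 and 3 were at the 3-read level and the size of the fold is imprecise. Means of 40.2 ± 10.3 and 3.32 ± 0.897 (SD, n = 3 each) gave a log2 fold change of 3.25 (SE 0.535, limma adjusted p = 0.00156), which was 1.90 when 10 instead of 1 was added to the values before the logarithm.

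**Figure D2:**
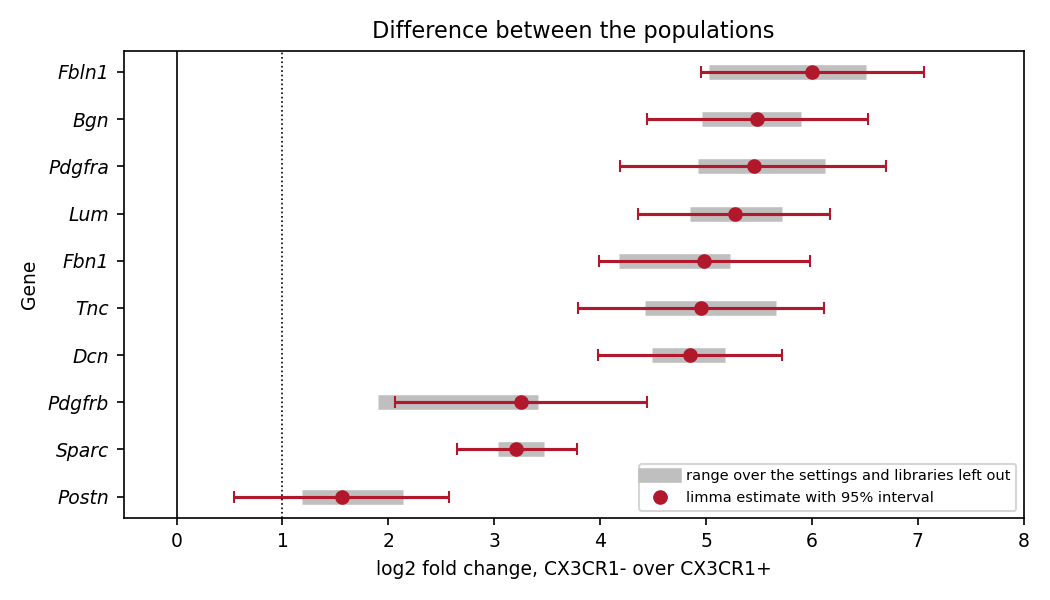
Log2 fold change of each gene, CX3CR1- over CX3CR1+ (horizontal axis). Points and bars are the limma estimate with its 95% interval, grey bands give the range over the alternative settings and left-out libraries, and the dotted line marks the threshold of 1. Postn lies lowest at 1.56 and Fbln1 highest at 6.00, and the interval of Postn, 0.54 to 2.57, is the only one that reaches below 1.

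Levels were compared between genes only per kb of the longest coding transcript. Per kb, the highest level in CX3CR1- cells was that of Dcn, at 1540 ± 744 (SD, n = 3). Sparc followed with 815 ± 224, Bgn with 569 ± 267 and Lum with 461 ± 219 (SD, n = 3 each). The ranges of these neighbours overlapped, as with 900 to 2360 per kb for Dcn and 557 to 949 for Sparc. Pdgfra, Fbln1 and Tnc lay between 142 and 205 per kb on average, and Postn, Fbn1 and Pdgfrb had 47.5 ± 26.6, 33.7 ± 17.0 and 7.41 ± 1.90 (SD, n = 3 each).

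In CX3CR1+ cells the order per kb was led by Sparc instead, with 86.2 ± 17.5, followed by Dcn with 52.3 ± 23.4 (SD, n = 3 each). Postn, eighth in CX3CR1- cells, was the third in CX3CR1+ cells at 13.8 ± 0.878 per kb (SD, n = 3). Its range there, 12.8 to 14.6 per kb, overlapped those of Bgn, 5.34 to 20.6, and Lum, 6.94 to 13.7. The lowest levels were those of Fbn1, 0.977 ± 0.437, and Pdgfrb, 0.611 ± 0.165 (SD, n = 3 each). The make-up of the summed value of the 10 genes shifted accordingly. Sparc took 13.5 to 22.6% of it in CX3CR1- and 38.7 to 45.6% in CX3CR1+ libraries, and Postn took 1.03 to 2.13% and 8.17 to 12.5%. Dcn took 22.7 to 27.9% and 14.8 to 24.6%, ranges that overlapped. These shares are of values not divided by length, and they were not tested.

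Summed over the 10 genes, the normalized value was 10521, 5665 and 16134 in CX3CR1- and 548, 503 and 357 in CX3CR1+ replicates 1, 2 and 3. That was 0.0845, 0.0486 and 0.143% of the normalized total in CX3CR1- and 0.00672, 0.00613 and 0.00471% in CX3CR1+ libraries. The genes thus made up a small part of the RNA in either population. In the CX3CR1- group the libraries kept almost the same order for all of them. CX3CR1- replicate 2 was the lowest of the 3 for 10 of 10 genes, against 35.0% of all tested genes and 37.5% of those called higher. CX3CR1- replicate 3 was the highest for 9 of 10 genes, against 33.2% of all tested genes, and Postn was the exception with its highest value in CX3CR1- replicate 1. The ratio of CX3CR1- replicate 3 to replicate 2 was 5.60 for Tnc, 5.24 for Pdgfra and 4.13 for Fbln1, between 2.41 and 3.01 for Dcn, Lum, Bgn, Fbn1 and Postn, 1.70 for Sparc and 1.61 for Pdgfrb. Among the CX3CR1+ libraries no such common order was seen, since replicates 1, 2 and 3 were lowest for 1, 4 and 5 genes.

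The spread within the groups was wide for these genes. Their median SD of log2(value + 1) was 0.75 in CX3CR1- and 0.43 in CX3CR1+ libraries, against 0.47 and 0.30 for all tested genes. CX3CR1- replicate 2, the library with the lowest matrix values, was also the shallowest of its group at about 6517535 reads, against 11331837 and 11927368. It had the lowest value of its group in 10 of 16 genes of the fibroblast list, 6 of 6 of the pericyte list and 8 of 8 of the smooth muscle list. So it had for 4 of 4 tested glial, 3 of 3 interstitial cell of Cajal and 3 of 5 mesothelial genes. For epithelial, macrophage and conventional dendritic cell genes it was 3 of 7, 3 of 9 and 0 of 7. The part of depth or of these cells in the order was not tested. Without CX3CR1- replicate 2 the 10 genes were all still called higher. Without CX3CR1- replicate 3, the library with the highest values for 9 of them, 9 were.

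Promoters were read from RefSeq for GRCm38.p6 as the 250 bases before the annotated start, in which 7 of the 10 genes were matched. Those of Fbln1 and Bgn, genes with the largest fold changes, and of Postn, the gene with the smallest, are shown on the strand of the gene because these genes shared a direction and differed most in size. Capitals mark matches to TATAAA, the TATA box, and to GGGCGG, the GC box bound by Sp factors, each searched on both strands together with TGANTCA, the AP-1 site. The windows are chr15:85205699-85205948 for Fbln1, chrX:73483351-73483600 for Bgn and chr3:54360857-54361106 for Postn, all on the plus strand.
Fbln1: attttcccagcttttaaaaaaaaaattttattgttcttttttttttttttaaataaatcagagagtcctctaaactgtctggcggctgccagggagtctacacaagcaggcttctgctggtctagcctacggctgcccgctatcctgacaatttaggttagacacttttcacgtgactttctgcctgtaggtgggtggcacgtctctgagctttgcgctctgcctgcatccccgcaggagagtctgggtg
Bgn: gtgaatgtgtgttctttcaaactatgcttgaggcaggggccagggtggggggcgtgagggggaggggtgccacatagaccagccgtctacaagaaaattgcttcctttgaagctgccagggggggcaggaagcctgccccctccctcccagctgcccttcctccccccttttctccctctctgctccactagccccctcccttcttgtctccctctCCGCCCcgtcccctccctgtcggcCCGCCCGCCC
Postn: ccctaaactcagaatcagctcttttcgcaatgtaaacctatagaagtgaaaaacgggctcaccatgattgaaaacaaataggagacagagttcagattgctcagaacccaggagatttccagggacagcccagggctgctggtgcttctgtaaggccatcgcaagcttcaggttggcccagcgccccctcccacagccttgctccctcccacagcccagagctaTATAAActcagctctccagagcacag
The Fbln1 window held no match to any of these motifs. In that of Bgn, GGGCGG matched 3 times on the opposite strand, beginning 34, 10 and 6 bases before the start, and the last pair of matches overlapped. Postn had TATAAA 26 bases before its start. TATAAA was in 2 of the 7 windows, those of Postn and Tnc, and in 12.3% of the 32536 windows of the same length in the RefSeq table. GGGCGG was in 3 of 7, those of Bgn, Fbn1 and Tnc, against 33.0% of all windows, and TGANTCA in 0 of 7, against 6.73%. The 7 windows had a median GC content of 54.0%, against 52.4% for all. These letters therefore gave no property that the 7 windows shared.

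Genes of the same families, taken from lists written by hand, were set beside the 10. These lists too were written with earlier results of these data known, so that their counts are a description only. The other small leucine-rich proteoglycans were mostly higher in CX3CR1- cells too. Of the 9 that were listed, 6 could be tested, of which 5 were called higher and 0 lower, with a median log2 fold change of 3.23. Prelp, which anchors basement membranes to connective tissue, had 323, 392 and 712 in CX3CR1- against 12.4, 19.1 and 35.9 in CX3CR1+ replicates 1, 2 and 3, a log2 fold change of 4.39 (limma adjusted p = 5.28e-05). Ecm2 followed with means of 287 and 25.1 and a log2 fold change of 3.27 (limma adjusted p = 0.00039), and Aspn, Podn and Ogn were called too, with log2 fold changes of 3.78, 3.19 and 1.62. Tsku was not called, with a log2 fold change of 0.21 (SE 0.881) at means of 14.9 and 8.83. Fmod, Omd and Chad had a mean under 10 over the 6 libraries and were not tested.

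Of 16 further genes of elastic fibres and fibulins, 13 were tested, of which 8 were called higher and 0 lower, with a median log2 fold change of 3.12. Ltbp4, which ties latent TGF-β to microfibrils, had means of 485 and 20.4 and a log2 fold change of 4.51 (limma adjusted p = 4.89e-06). Mfap4, a microfibril-associated glycoprotein, had 475 and 16.7 and a log2 fold change of 4.84 (limma adjusted p = 0.000251). Ltbp1 was not called, at 130 and 148 with a log2 fold change of -0.13 (SE 0.3).

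The other matricellular genes gave 9 called higher and 0 lower of 13 tested out of 18 listed, with a median log2 fold change of 2.31. Thbs2, a thrombospondin that inhibits vessel growth, had 1300, 376 and 2010 in CX3CR1- and 21.7, 37.7 and 29.7 in CX3CR1+ replicates 1, 2 and 3, with a log2 fold change of 5.05 (limma adjusted p = 8.34e-05). As for 9 of the 10 genes, its lowest CX3CR1- value was in replicate 2 and its highest in replicate 3. In this list, CX3CR1- replicate 2 was lowest for 6 of the 13 tested genes and CX3CR1- replicate 3 highest for 9. Cyr61, a target of YAP signalling, had means of 782 and 189 and a log2 fold change of 2.01 (limma adjusted p = 0.00103). Tgfbi, a relative of periostin, was not called, and its means of 861 and 1352 gave a log2 fold change of -0.66 (limma adjusted p = 0.0236).

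Lecticans and heparan sulphate proteoglycans held the single family member called lower. Of 12 tested out of 15 listed, 9 were called higher and 1 lower, with a median log2 fold change of 3.03. Hspg2, which encodes the basement membrane proteoglycan perlecan, had means of 529 and 30.1 and a log2 fold change of 3.97 (limma adjusted p = 0.000161). Agrn, which encodes agrin, had 158 and 56.0 and a log2 fold change of 1.52 (limma adjusted p = 0.00681). Sdc4, a transmembrane syndecan that takes part in focal adhesions, had 960, 1110 and 1330 in CX3CR1- and 6090, 7300 and 5400 in CX3CR1+ replicates 1, 2 and 3, and its log2 fold change was -2.47 (limma adjusted p = 9.27e-06). Sdc3 was not called, with means of 964 and 1394 and a log2 fold change of -0.54. Over these 4 lists of matrix genes, 31 genes were called higher, 1 lower and 12 not, out of 44 tested and 58 listed. Genes that are low in both populations are not among those tested, and a gene that is high in CX3CR1- cells alone had to differ to be tested. Of the calls, 9 of the 31 had a CX3CR1+ mean under 10.

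**Figure D3:**
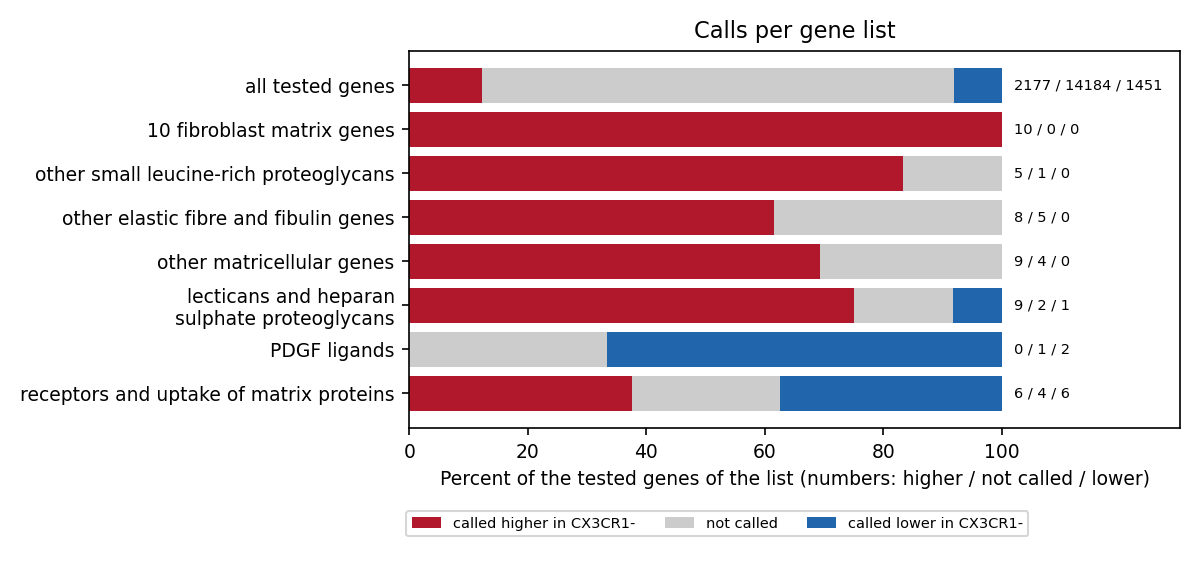
Share of the tested genes of each list that were called higher (red), not called (grey) or called lower (blue) in CX3CR1- cells, with the numbers at the right in that order. Each of the matrix lists holds a larger red share than all tested genes, of which 12.2% were called higher, and the PDGF ligands hold no red share.

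The ligands of the PDGF receptors were not called in the direction of the receptors. Pdgfa, which encodes the ligand of PDGFRα, had 162, 158 and 125 in CX3CR1- and 251, 490 and 388 in CX3CR1+ replicates 1, 2 and 3, and its log2 fold change was -1.30 (SE 0.275, limma adjusted p = 0.00652). Pdgfb, whose product binds both receptors, had 40.7, 35.8 and 101 in CX3CR1- and 155, 221 and 183 in CX3CR1+ replicates 1, 2 and 3, with a log2 fold change of -1.78 (SE 0.39, limma adjusted p = 0.0076). Both ligands were thus called lower in CX3CR1- cells, where Pdgfra and Pdgfrb were called higher. Pdgfc was not called, with means of 32.9 and 39.5 and a log2 fold change of -0.28 (limma adjusted p = 0.617). Pdgfd was too low to be tested, at 2.16, 11.1 and 7.22 in CX3CR1- and 0, 0.848 and 0 in CX3CR1+ replicates 1, 2 and 3. Its values thus ran in the direction of the receptors.

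Receptors for matrix proteins, and genes for their uptake, were called in both directions, 6 higher and 6 lower of 16 tested, with a median log2 fold change of -0.58. Of the 6 called higher, 2 had a CX3CR1+ mean under 10 and were tested through their CX3CR1- values. Egfr, to which decorin and the EGF-like repeats of tenascin-C can bind, had means of 248 and 63.0 and a log2 fold change of 1.87 (limma adjusted p = 0.00212). Ddr2, a receptor for fibrillar collagen, had 198 and 67.3 and a log2 fold change of 1.48 (limma adjusted p = 0.0444), although its groups overlapped. Stab1, a scavenger receptor of macrophages that takes up SPARC, had 544 and 3264 and a log2 fold change of -2.73 (limma adjusted p = 0.000331). Tlr2, one of the receptors of biglycan, had 234 and 2379 and a log2 fold change of -3.40 (limma adjusted p = 1.24e-05). Cd44, a receptor of hyaluronan, was not called, with means of 2311 and 2001 and a log2 fold change of 0.20.

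Marker lists of other cell types were read beside the 10 genes, since the sort is described by MHCII and CX3CR1. In its flow cytometry the study gated such cells on CD45, a gate that would remove fibroblasts, pericytes, endothelium and epithelium, and whether the sort for RNA used CD45 is not given in the sources used here. Of 16 other fibroblast genes, 13 were called higher and 0 lower in CX3CR1- cells, with a median log2 fold change of 3.91, and none was at 0 in all libraries of a group. Their summed value was 6541 to 15810 in CX3CR1- and 589 to 889 in CX3CR1+ libraries. For 2 of the 13 calls the CX3CR1+ mean was under 10, so that these genes were tested through their CX3CR1- values. Dpt, which encodes the matrix protein dermatopontin, had 2180, 1140 and 3840 against 47.2, 58.2 and 28.3 in replicates 1, 2 and 3, with a log2 fold change of 5.60 (limma adjusted p = 1.21e-05). C3 had means of 1479 and 294 and a log2 fold change of 2.41 (limma adjusted p = 0.000794). Mmp2 was not called, with means of 187 and 64.3 and a log2 fold change of 1.17 (limma adjusted p = 0.131), and Thy1 and Fap, known markers of fibroblasts, were not called either, at 112 and 62.4 for Thy1 and 11.8 and 24.2 for Fap.

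Pericyte markers gave 5 called higher of 6, with summed values of 1915 to 9519 in CX3CR1- and 1105 to 1414 in CX3CR1+ libraries. That count was 2 without CX3CR1- replicate 1, CX3CR1- replicate 3 or CX3CR1+ replicate 2, and 3 without CX3CR1+ replicate 1 or 3 or after quantile normalization. Rgs5, the leading one, had 5350, 1520 and 7370 in CX3CR1- and 1250, 946 and 1030 in CX3CR1+ replicates 1, 2 and 3. None of the 8 smooth muscle markers was called in either direction by limma, and their sums, 1215 to 3348 and 2441 to 3380, overlapped. The list of interstitial cells of Cajal gave 1 of 3 called higher, Kit, and sums of 350 to 1135 and 450 to 691, and 2 of 3 without CX3CR1- replicate 2. Of the glial markers 3 of the 4 tested were called higher, with sums of 119 to 378 and 54.2 to 68.3, but 1 was without CX3CR1- replicate 1, CX3CR1- replicate 3 or CX3CR1+ replicate 3, and 0 with a minimum mean of 50. Of the neuronal ones 0 of 4 were called, with sums of 82.4 to 378 and 57.3 to 98.0, and 1 was without CX3CR1- replicate 2 or 3 or without a trend in the variance. Mesothelial markers gave 2 of 5, Krt19 and Wt1, and sums of 217 to 1049 and 30.6 to 104, and 4 of them were called without CX3CR1- replicate 2. Krt19 had 179, 153 and 96.7 in CX3CR1- replicates 1, 2 and 3, lowest in replicate 3 as the sum of the epithelial list below was. Upk3b, at 123, 0 and 37.9 there, was not called, and Msln and Upk1b were too low to be tested. Endothelial markers gave 4 higher and 1 lower of 6, with sums of 718 to 951 and 392 to 623. With a minimum mean of 50, where fewer genes were tested, 1 endothelial marker was called higher and 0 lower, and 1 mesothelial marker was called higher. A CX3CR1+ mean under 10 stood behind 2 of the 5 pericyte calls, 1 of the 3 glial, both mesothelial and 3 of the 4 endothelial calls higher, so that these genes reached the minimum mean through their CX3CR1- values.

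Epithelial markers were all called higher, 7 of 7, and summed to 15700 to 26740 in CX3CR1- and 23.1 to 43.1 in CX3CR1+ libraries. For 6 of the 7 the CX3CR1+ mean was under 10, and so it was for 2 of the 4 B and plasma cell calls given next, so that these genes too were tested through their CX3CR1- values. Unlike the 10 matrix genes, the epithelial markers summed lowest in CX3CR1- replicate 3, the library in which 9 of the 10 were highest. Most of that sum came from Fabp2. Taken singly, 3 of the 7 epithelial markers were lowest in CX3CR1- replicate 2, as the matrix genes were, and 0 were highest in CX3CR1- replicate 3. Fabp2, a fatty acid binding protein of enterocytes, had 21200, 21000 and 12600 in CX3CR1- and 9.25, 0.82 and 2.83 in CX3CR1+ replicates 1, 2 and 3. B and plasma cell markers gave 4 of 5 called higher with sums of 1341 to 3539 and 58.6 to 89.3, and among them Mzb1 was listed at 0 in all 3 CX3CR1+ libraries. The T and NK cell list gave 1 of 2 called higher, Cd2, with sums of 262 to 295 and 63.5 to 129, and 2 without CX3CR1- replicate 1. Cd2 had a CX3CR1+ mean under 10 and was likewise tested through its CX3CR1- values. The part of any of these cell types in the level of the 10 genes was not tested.

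**Figure D4:**
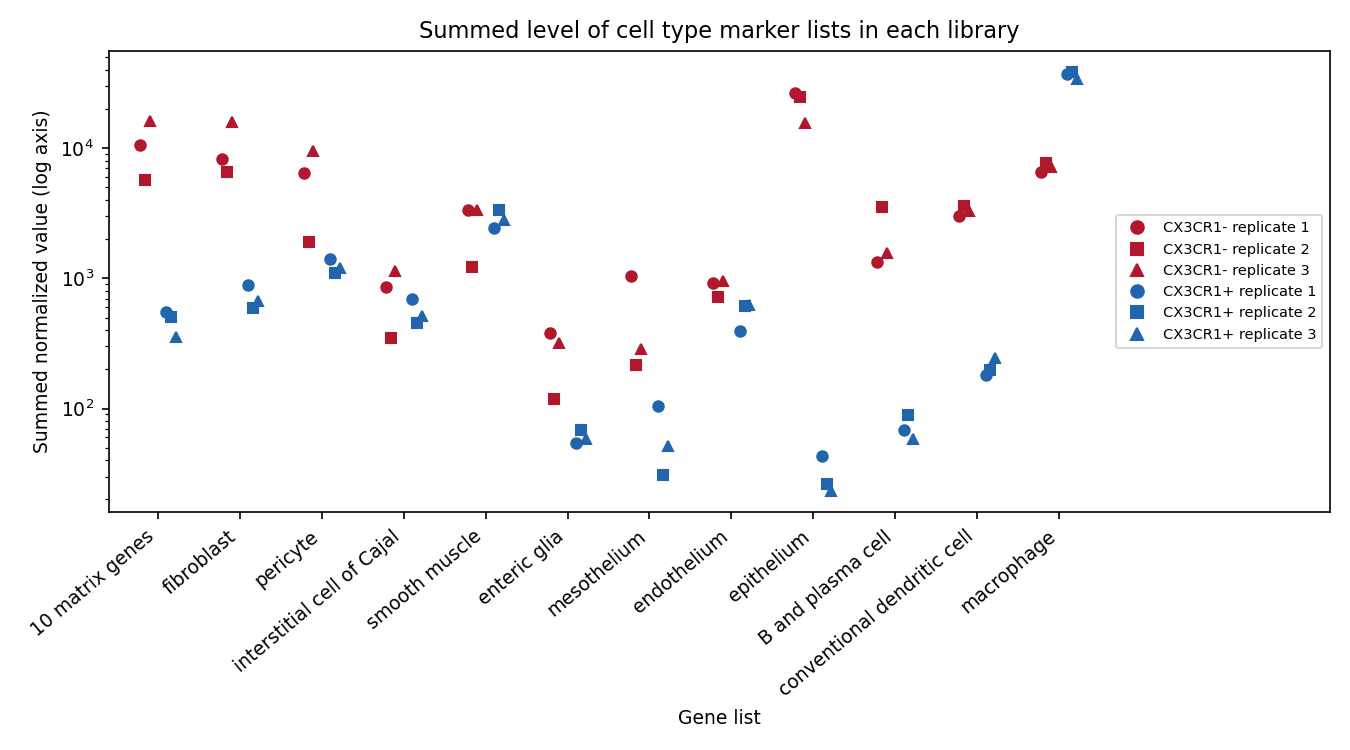
Summed normalized value (log axis) of the 10 matrix genes and of 11 marker lists in each library, red for CX3CR1- and blue for CX3CR1+, with the replicate given by the point shape. Within CX3CR1- the fibroblast, pericyte and interstitial cell of Cajal lists have replicate 2 lowest and replicate 3 highest, as the sum of the 10 genes does. The smooth muscle list has CX3CR1- replicate 2 lowest too, but CX3CR1- replicates 1 and 3 are nearly equal at 3337 and 3348. The interstitial cell of Cajal and smooth muscle lists overlap between the populations, and the epithelial list is lowest in CX3CR1- replicate 3.

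The genes whose profile over the 6 libraries was most like the mean profile of the 10 were found by the Euclidean distance of centred log2(value + 1). Col1a2, which encodes a chain of type I collagen, was nearest at a distance of 0.43, with 750, 502 and 1360 in CX3CR1- and 32.1, 29.3 and 31.9 in CX3CR1+ replicates 1, 2 and 3. Col5a1, a chain of the type V collagen that nucleates fibrils, was at 0.52, with 196, 161 and 378 against 9.25, 8.20 and 7.08. The other 3 genes that the rule picked, Baiap2l2, Nccrp1 and Defa30, were at distances of 0.52, 0.54 and 0.65. They had values of at most 46.9 in CX3CR1- cells and were listed at 0 in all 3 CX3CR1+ libraries. Their step between the populations is set by their CX3CR1- level and the 1 added to it, so that their distances are not read as likeness. Within CX3CR1- they too were lowest in replicate 2 and highest in replicate 3, although Baiap2l2 had 29.9 and 30.1 in replicates 1 and 3. That order was thus not limited to the collagens. Among the 10 genes themselves, the distance from their mean profile was smallest for Dcn, 0.84, followed by Tnc, 1.08, and Lum, 1.11, and largest for Postn, 3.70. The distances describe 6 libraries of 2 populations and carry no test.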

How the data were processed

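RNA of sorted MHCIIhi CX3CR1- and CX3CR1+ cells (3 libraries each) had been sequenced as single reads after a TruSeq preparation that does not mark strand. Per the study's methods and the labels, the authors pseudoaligned the reads to the mouse transcriptome (mm10, GENCODE M16) with Kallisto, summed them per gene with tximport and ran DESeq2 on them. The deposited values are therefore signal normalized between libraries, not counts. Whole multiples of the smallest step of a library (tolerance 0.01 of a step) made up 42.5 to 44.6% of its values above 0, so that no count test was run. That step gave the approximate reads of a library and the value of 3 reads, and it covers counting error only.

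Groups came from the sample titles, and replicates were numbered within each group in the order of the records. Equal replicate numbers therefore fall on libraries with adjacent library numbers. The labels do not say whether such libraries belong together, and the fit reported did not pair them. Genes whose mean over all 6 libraries reached 10 (17812 of 26110, with 23 symbols listed more than once) were fitted as log2(value + 1) by lmFit and eBayes of limma 3.58.1 (R 4.3.3), two-sided and with an intensity trend, and adjusted after Benjamini-Hochberg over all of them. The fit was tested on simulated data. Single values are given to 3 significant digits. The members and lists were chosen with earlier results of these data known. A marker gene of a list is not reported here. Named are the 10 members, of each other list the 2 genes with the highest means among those called in each direction and the highest not called, genes of lists of at most 9, and the 5 nearest profiles, whereas Thy1 and Fap were named after their values had been seen. Positions, transcript lengths and shared words of 31 bases came from GENCODE M21 for GRCm38, and plots from matplotlib 3.10.9. Alternatives were pseudocounts of 0.5 and 10, no filter, a minimum mean of 50, median-of-ratios and quantile rescaling, no trend, library quality weights and leaving out each library, and rescaling to the total without mitochondrial genes and a block for adjacent library numbers followed once the data were known.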

Additional observations from a re-analysis of the deposited data

How the results depend on the processing

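All 10 matrix genes kept their direction under every alternative run, and 152 of 159 refitted log2 fold changes also kept their call. The exceptions were all of Postn, whose log2 fold change was 1.36 (limma adjusted p = 0.0688) after quantile normalization, 1.56 (limma adjusted p = 0.0795) without a trend in the variance, and 1.18 to 2.14 when 1 library was left out, with the call lost except without CX3CR1- replicate 2. With a minimum mean of 50, Pdgfrb was not tested and 1232 of 10208 tested genes were called higher, against 2177 in the fit reported, since fewer genes were tested. Leaving out 1 library gave 1724 to 2263 genes called higher and 1011 to 1606 called lower. Over all genes the median log2 fold change moved to -0.15 after quantile normalization and to 0.17 after rescaling to the total without mitochondrial genes, and the share of calls that were higher, 60.0% in the fit reported, was 50.6 and 69.4% there and 51.1% with the minimum of 50. Library numbers in the labels are not shared between the populations but form 3 adjacent pairs with 1 library of each. As a replicate block, added after the data had been seen, these pairs gave 2165 genes called higher and 1445 lower, left all 10 matrix genes called, and put Postn at an adjusted p of 0.0184 (limma). Deviations from the group means correlated by 0.10, 0.04 and 0.01 within the pairs over 17812 genes, and by -0.08 to 0.04 between libraries of different pairs. With 3 libraries a group these values cannot decide whether the libraries of a pair shared a pool of mice. The fit reported therefore used no block, and a pairing may have been left out of it.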
